A study of Mus musculus with 16 samples.

Results

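The LIM homeobox genes Lhx1, Lhx2, Lhx3, Lhx4, Lhx5, Lhx6, Lhx8, Lhx9, Isl1 and Isl2 were measured by RNA sequencing in Head and Tail tissue of E10.5 mouse embryos. They were taken as a gene family by name and matched by Ensembl identifier, with earlier results of these data known. All 10 were found among the 54838 identifiers of each count table, and all 10 passed the filter on low counts that left 21284 genes. The embryos were wild type (WT), Fuz knockout (Fuz KO), Gpr161 knockout (Gpr161 KO) or knockout for both genes (DKO), and each was divided into a Head, which lay above the third branchial arches, and a Tail, which lay below the forelimbs. Each of the 8 groups of region and genotype held 2 libraries, numbered 1 and 2. All groups shared the same age, and no agent was given to any of them. The sources used here do not give the strain, the alleles, the number of embryos behind a library, or whether libraries of 1 number shared an embryo. P-values therefore cover just the variation seen among these libraries, which may be technical. Fuz encodes a planar cell polarity effector that cells need to build primary cilia, and Gpr161 encodes a ciliary receptor that holds Hedgehog signalling down.

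LIM homeodomain proteins bind DNA through a homeodomain and bind partners through a pair of LIM domains, zinc-binding folds that recruit the adaptor Ldb1. In the embryo they act in combinations that set cell identity. Isl1, Isl2, Lhx3 and Lhx4 mark motor neurons as they form, Lhx1, Lhx5, Lhx2 and Lhx9 mark classes of interneuron, and Lhx2 is also needed for the eye and forebrain. Lhx6 and Lhx8 are expressed in the mesenchyme of the first branchial arch around the mouth, where Fgf8 from the oral epithelium is known to induce them, and later in the ventral forebrain. Isl1 also marks the second heart field, the progenitors that add to the heart from the pharynx.

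Lhx6, Lhx8 and Isl1 were the members called changed between genotypes, so the sequences at their gene starts are shown. Promoter windows of 300 bases, from 250 bases before to 50 after each start, were taken from RefSeq on the build GRCm38.p6, and 9 of the 10 members matched, with 13 windows in all. Lhx5 had none. The windows below read 5′ to 3′ on the gene's strand in lower case, with every CpG dinucleotide in capitals.
Lhx6: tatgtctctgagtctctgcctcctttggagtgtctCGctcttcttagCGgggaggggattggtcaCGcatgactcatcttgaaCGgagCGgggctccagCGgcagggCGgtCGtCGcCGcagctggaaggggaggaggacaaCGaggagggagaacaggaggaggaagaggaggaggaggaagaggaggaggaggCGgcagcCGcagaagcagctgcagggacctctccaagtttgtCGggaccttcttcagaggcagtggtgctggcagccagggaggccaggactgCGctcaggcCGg
Lhx8: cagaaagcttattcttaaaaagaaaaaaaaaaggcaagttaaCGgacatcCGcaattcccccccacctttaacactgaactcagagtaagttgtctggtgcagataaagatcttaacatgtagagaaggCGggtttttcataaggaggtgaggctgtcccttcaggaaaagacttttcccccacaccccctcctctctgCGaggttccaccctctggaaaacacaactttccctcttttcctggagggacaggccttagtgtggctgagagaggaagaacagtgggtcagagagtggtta
Isl1: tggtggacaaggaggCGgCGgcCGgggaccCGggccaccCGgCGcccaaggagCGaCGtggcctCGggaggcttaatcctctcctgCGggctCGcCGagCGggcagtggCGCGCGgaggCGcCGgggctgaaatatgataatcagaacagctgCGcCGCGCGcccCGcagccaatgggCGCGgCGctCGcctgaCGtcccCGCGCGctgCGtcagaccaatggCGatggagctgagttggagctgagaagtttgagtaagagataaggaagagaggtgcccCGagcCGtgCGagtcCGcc
The Lhx6 window lies at chr2:36105359-36105658, minus strand, and is the first of 3 for this gene. The Lhx8 window lies at chr3:154330511-154330810, minus strand. The Isl1 window lies at chr13:116309639-116309938, minus strand. The Isl1 window held 37 CpG dinucleotides, the Lhx6 window 16 and the Lhx8 window 4. The ratio of observed to expected CpG was 1.05 for Isl1, 0.58 for Lhx6 and 0.24 for Lhx8, against a median of 0.38 over all 32851 windows of the same length. Lhx8 therefore had the lowest ratio of the 13 windows, and Isl1 the highest. G and C made up 69.0% of the Isl1 window, 63.3% of the Lhx6 window and 47.0% of the Lhx8 window, with a median of 52.7% over all windows. The motif GACCACCCA, to which the Gli factors of the Hedgehog pathway bind, was searched on both strands and was in none of the 13 windows, against 0.253% of all windows. The homeodomain core TAATTA, which is its own reverse complement and can overlap TATAAA, was likewise in none, against 5.29% of all. TATAAA was in 2 of the 13, the first Lhx3 window and the third Lhx6 window, against 13.6% of all.

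Total counts per library ran from 39062489 to 53680317. Levels are given as CPM, the count scaled to a fixed library total after TMM adjustment. Fuz was at 0.808 to 1.89 CPM where it was knocked out and at 4.95 to 9.22 CPM in the other libraries, and Gpr161 was at 2.12 to 5.44 CPM where it was knocked out and at 24.3 to 55 CPM in the other libraries. Both genes thus followed the genotype labels in all 16 libraries. Ptch1, the Hedgehog receptor and a direct target of the pathway, ran from 479 to 545 CPM in Gpr161 KO, from 136 to 162 in WT, from 119 to 199 in DKO and from 97.6 to 157 in Fuz KO. Of 10 Hedgehog targets and ligands, 8 rose in Head Gpr161 KO and 6 in Tail Gpr161 KO. Sex was not taken from the labels but read from counts of Xist against the Y-linked genes Ddx3y, Eif2s3y, Kdm5d and Uty. By this reading the WT libraries were female, the Fuz KO and DKO libraries male, and Gpr161 KO 1 male and Gpr161 KO 2 female. Xist was at 824 to 977 CPM in the libraries read as female and at 0.333 to 1.22 CPM in those read as male. Sex and genotype thus cannot be told apart in Fuz KO or DKO against WT. A sex term in the fit is estimated only from Gpr161 KO 1 against Gpr161 KO 2. There, sex cannot be told from any other difference between the libraries numbered 1 and 2. Genes of hypoxia and glycolysis had a median log2 difference from WT of 2.58 in Head Fuz KO 1, 2.31 in Head DKO 1, 2.06 in Tail Fuz KO 1 and 1.64 in Tail DKO 1, against 0.09 to 0.56 in the libraries numbered 2 of those groups. In Gpr161 KO it was 1.25 in Head 1, 0.63 in Head 2, 1.03 in Tail 1 and 0.32 in Tail 2, and the part of this difference in the calls was not tested. As a check of the regions, 15 of 19 eye and forebrain genes were higher in Head WT than in Tail WT, and 7 of 16 limb bud genes were lower.

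Per kb of exon, Lhx2 had the highest level of the 10 in Head WT and Isl1 in Tail WT. In Head WT, Lhx2 was at 17.1 CPM per kb, followed by Isl1 at 7.58, Lhx5 at 6.91 and Lhx8 at 6.77, and Lhx4 was lowest at 0.662. In Tail WT, Isl1 was at 11.4 CPM per kb, followed by Lhx2 at 7.40 and Lhx9 at 4.98, and Lhx8 was lowest at 0.0181. Lhx8 was the member whose level differed most between the regions.

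**Figure D1:**
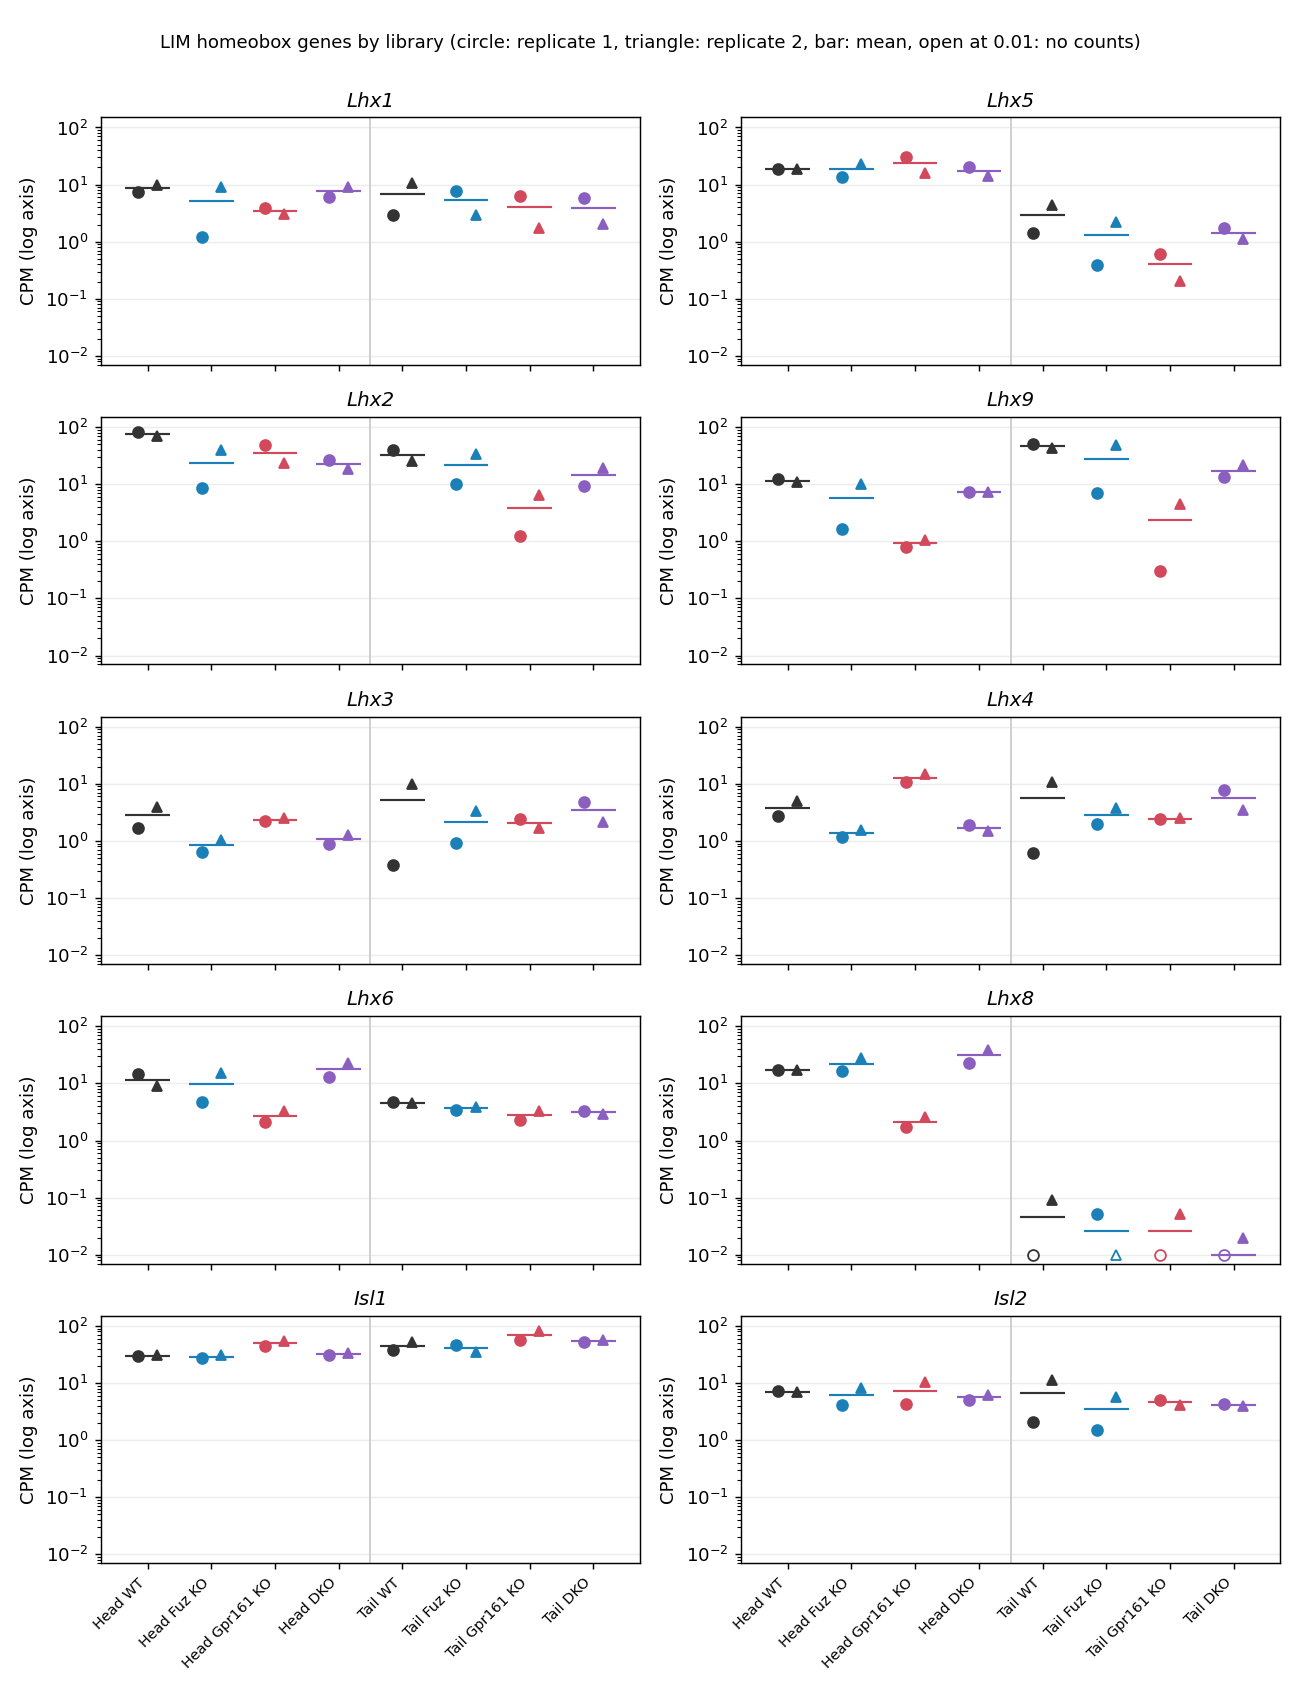
CPM of the 10 LIM homeobox genes on log axes, 1 panel a gene, with the 8 groups along the x axis, circles and triangles for libraries 1 and 2, bars for the mean of both and open symbols at 0.01 for no counts. The Lhx6 and Lhx8 panels show Head Gpr161 KO below the other 3 Head groups, and the Lhx3, Lhx4 and Isl2 panels show the wide gap between the Tail WT libraries.

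Changes were tested with edgeR's quasi-likelihood test over all 21284 genes, and a gene was called changed at a Benjamini-Hochberg adjusted p under 0.05. The 10 genes were tested in 18 comparisons, and 8 of these tests were called. In Head Gpr161 KO against Head WT, Lhx6 and Lhx8 fell, 2 of 10 members, while 2.02% of all genes were called in either direction and 0.507% as lower. In Head DKO against Head Gpr161 KO, Lhx6 and Lhx8 rose, 2 of 10, against 4.16% of all genes in either direction and 1.03% as higher. In Head Gpr161 KO against Head Fuz KO, Lhx6 and Lhx8 were lower and Isl1 was higher, against 5.87% of all genes in either direction, 1.71% as lower and 4.16% as higher. In Head WT against Tail WT, Lhx8 was higher, 1 of 10, against 3.77% of all genes in either direction and 2.02% as higher. With a block for Head and Tail libraries of one genotype and number, an alternative added after the data were seen, 2007 genes and 4 members were called between the WT regions, with Lhx5 (2.82, adjusted p = 0.0107), Lhx6 (1.30, adjusted p = 0.0439) and Isl1 (-0.58, adjusted p = 0.0155) beside Lhx8. These comparisons share groups, so the calls in Head Gpr161 KO rest on the same 2 libraries.

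No member was called in the other 14 comparisons, where few genes passed at all. Head Fuz KO against Head WT called 0.047% of all genes, Head DKO against Head WT 0.0329% and Head DKO against Head Fuz KO 0.0282%. In the Tail, the share was 0.0094% for Fuz KO against WT, 0.305% for Gpr161 KO against WT and 0.0423% for DKO against WT. Between Tail mutants it was 0.0329% for DKO against Fuz KO, 0.522% for DKO against Gpr161 KO and 0.395% for Gpr161 KO against Fuz KO. Non-additivity, the DKO's log2 effect less both single-mutant effects added up, was called for 0.164% of all genes in the Head and 0.0423% in the Tail. The difference of an effect between Tail and Head was called for 0% of all genes for the DKO, 0.094% for the Gpr161 KO and 0% for the Fuz KO. At an unadjusted p under 0.05, edgeR passed 4 members in Tail Gpr161 KO against WT, 3 in Head non-additivity, 3 in Tail Gpr161 KO against Fuz KO, 2 in Tail non-additivity, 2 for the Gpr161 KO effect between regions, 1 in Tail DKO against Gpr161 KO and 0 in the other 8. Of all 21284 genes, 1486, 1707, 1980, 1329, 1119 and 2597 passed in the named comparisons, in that order, and 452 to 1739 in the other 8. DESeq2 called 2 members in Tail Gpr161 KO against WT, 2 in Head non-additivity and 0 in the other 12. The share of all genes that DESeq2 called is not reported here, so its counts are not read as a result about the members.

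The libraries of a mutant group and WT did not overlap for 7 of the 10 members in Head Gpr161 KO, where this held for 53.5% of all genes, for 7 in Head DKO (40.4%) and for 4 in Head Fuz KO (36.5%). In the Tail they did not overlap for 5 members in Gpr161 KO (44.7%), 3 in DKO (42.2%) and 1 in Fuz KO (34.6%). Between Head WT and Tail WT this held for 6 members, against 52.7% of all genes. With 2 libraries a group such gaps are common, and the counts of members are read against these shares. The median log2 change of the 10 against WT was -0.67 in Head Gpr161 KO, -0.49 in Head Fuz KO and -0.24 in Head DKO. In the Tail it was -1.02 in Gpr161 KO, -0.79 in Fuz KO and -0.74 in DKO. The median over all genes lay between -0.01 and 0.01. The Tail medians include Lhx8, which had at most 4 counts in a Tail library. They also include Lhx3 and Lhx4, whose changes in Fuz KO and Gpr161 KO turned positive without Tail WT 2. No shift of the family in the Tail is read from them.

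**Figure D2:**
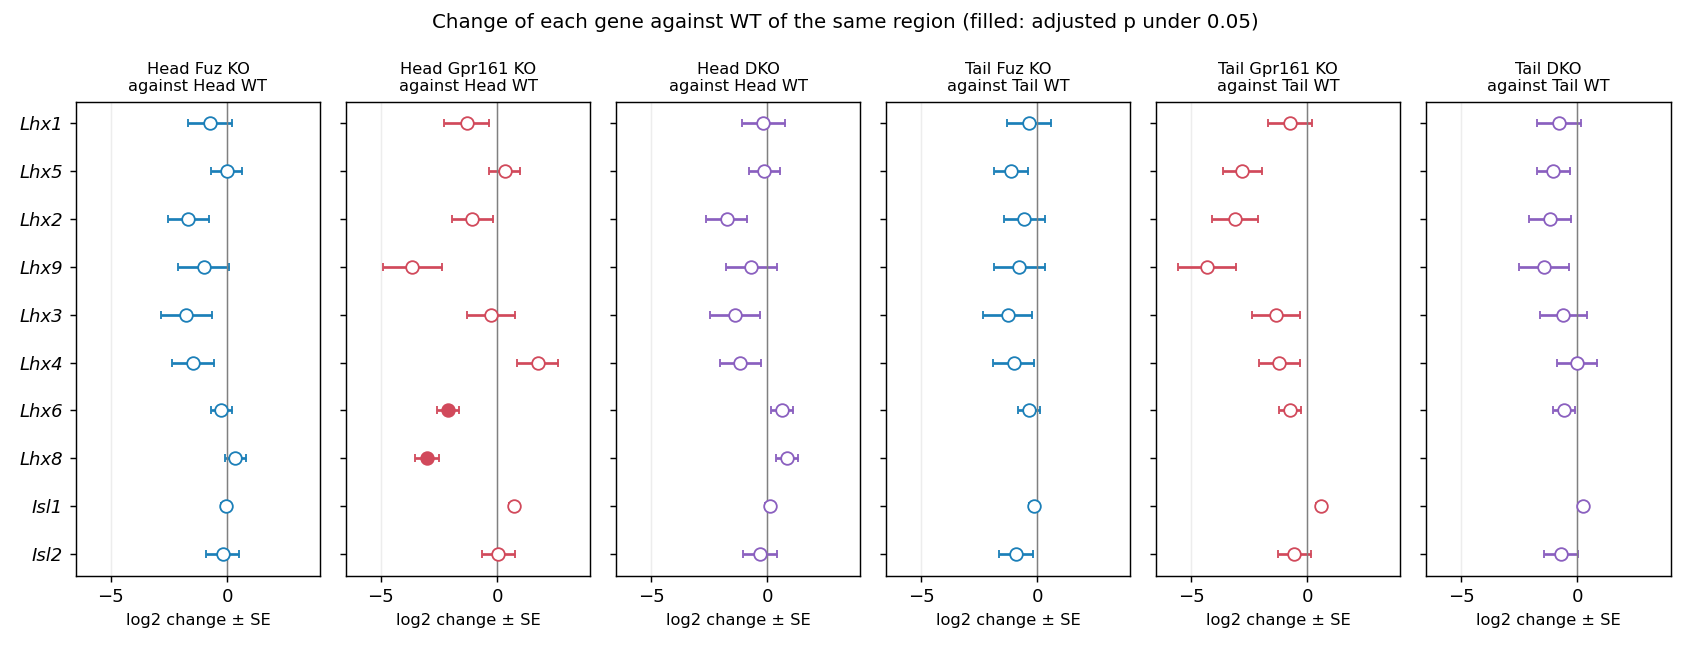
Log2 change of each LIM homeobox gene against WT of the same region on the x axis, 1 panel a mutant group, with bars for the standard error and filled symbols for an adjusted p under 0.05. The filled symbols are Lhx6 at -2.11 and Lhx8 at -3.0 in Head Gpr161 KO, and Lhx8 is left out of the Tail panels because it had at most 4 counts there.

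Lhx8 and Lhx6, the closest relatives in the family, were the members called against WT in the Head, and both were lowest in Gpr161 KO among the Head groups. Lhx8 (ENSMUSG00000096225), which encodes a factor of the oral mesenchyme and of forebrain cholinergic neurons, was at 1.72 and 2.56 CPM in Head Gpr161 KO and at 17.4 and 16.9 CPM in Head WT. The other mutants of the Head had 16.3 and 27.3 CPM (Fuz KO) and 23.2 and 38.7 CPM (DKO). The Gpr161 KO libraries lay below all 6 other Head libraries, and both WT libraries lay between the Fuz KO libraries. Lhx8 fell by 3.0 on the log2 scale in Gpr161 KO against WT (SE 0.51, adjusted p = 0.00964) and was lower by a log2 change of -3.34 against Fuz KO (SE 0.51, adjusted p = 0.00285). In DKO it was higher than in Gpr161 KO by a log2 change of 3.85 (SE 0.52, adjusted p = 0.00168). The log2 change of Lhx8 against WT was 0.85 in DKO (SE 0.46, adjusted p = 0.957) and 0.35 in Fuz KO (SE 0.46, adjusted p = 0.798). Its departure from additivity in the Head was 3.5 (SE 0.68, adjusted p = 0.0742), short of the threshold, but it was called with DESeq2 (3.52, adjusted p = 2.27e-08) and with a replicate block (3.56, adjusted p = 0.014).

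In the Tail, Lhx8 was at or close to the limit of detection in every group. Tail WT had 0 and 4 counts, Tail DKO 0 and 1, Tail Gpr161 KO 0 and 2 and Tail Fuz KO 2 and 0, and a count of 0 allows up to 3 counts in a library. In Head WT it had 774 and 722 counts. Head WT exceeded Tail WT by a fitted log2 change of 8.43 (SE 0.75, adjusted p = 4.23e-05), a size that depends on the prior count because one Tail library had no counts. It was 12.51 without Tail WT 2 and 7.53 without Tail WT 1, both called. No fold is given between genotypes in the Tail.

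Lhx6 (ENSMUSG00000026890), which encodes the partner of Lhx8 in the oral mesenchyme and a factor of cortical interneurons, was at 2.14 and 3.28 CPM in Head Gpr161 KO and at 14.5 and 8.85 CPM in Head WT. Head DKO had 13.1 and 23.1 CPM, and Head Fuz KO 4.65 and 15. The Gpr161 KO libraries again lay below the 6 others, though Fuz KO 1 was closer to them than to Fuz KO 2. Lhx6 fell by 2.11 on the log2 scale against WT (SE 0.48, adjusted p = 0.0418) and was lower than in Fuz KO by a log2 change of -1.86 (SE 0.48, adjusted p = 0.0395). It was higher in DKO than in Gpr161 KO by 2.74 (SE 0.49, adjusted p = 0.00806). Non-additivity was 2.99 (SE 0.66, adjusted p = 0.133), and 3.00 with DESeq2 (adjusted p = 0.00102). In the Tail, unlike Lhx8, it was read in all 8 libraries, at 4.76 and 4.46 CPM in WT and from 2.27 to 3.88 in the mutants, and no mutant was called against WT there. The difference of the Gpr161 KO effect between Tail and Head was 1.38 for Lhx6 (SE 0.66, adjusted p = 0.986), so a difference between the regions was not shown.

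The calls of this pair in Head Gpr161 KO against WT depended on having both libraries. With Head WT 1, Head WT 2, Head Gpr161 KO 1 or Head Gpr161 KO 2 left out, the log2 change of Lhx8 was -3.0, -3.04, -2.76 and -3.34 with adjusted p of 0.0888, 0.084, 0.136 and 0.0619, and that of Lhx6 was -1.73, -2.44, -1.85 and -2.47 with adjusted p of 0.316, 0.11, 0.358 and 0.143. The calls over all genes in this comparison dropped from 429 to between 42 and 189 in the same fits. With sex as a term, which rests on Gpr161 KO 1 against 2, Lhx8 had -2.66 (adjusted p = 0.106) and Lhx6 -1.85 (adjusted p = 0.173). With the Head fitted without the Tail, Lhx6 had -2.12 (adjusted p = 0.161). In contrast, Lhx8 was called in DKO against Gpr161 KO and in Gpr161 KO against Fuz KO with each library left out in turn, with a highest adjusted p of 0.0294 and 0.0461. Lhx6 in DKO against Gpr161 KO was not called without Head Gpr161 KO 1 (2.47, adjusted p = 0.0979) or Head DKO 2 (2.29, adjusted p = 0.0652), nor with the Head fitted without the Tail (2.74, adjusted p = 0.0519). Against Fuz KO it was not called without Head Gpr161 KO 1 (-1.59, adjusted p = 0.253), Head Gpr161 KO 2 (-2.21, adjusted p = 0.128) or Head Fuz KO 2 (-0.76, adjusted p = 0.226), nor with the Head fitted without the Tail (-1.87, adjusted p = 0.128) or with sex as a term (-2.18, adjusted p = 0.0508).

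Other genes of the mouth and first branchial arch moved both ways in the same comparison. Of 16 such genes, 3 fell and 2 rose in Head Gpr161 KO against Head WT. Msx1, a homeobox gene of arch mesenchyme, fell by 1.96 on the log2 scale (adjusted p = 0.00251), and Prrx1, another mesenchymal homeobox gene, fell by 1.62 (adjusted p = 0.0294). Edn1, which encodes the endothelin that patterns the lower jaw, rose by 2.38 (adjusted p = 0.0357). Dlx5, a homeobox gene of the lower jaw, fell by 1.49 (adjusted p = 0.0419), outside the rule for named genes and chosen after its value was seen. The median of the 16 was -0.66, and 0.01 over all genes. In Head DKO against Head Gpr161 KO, 4 of the 16 rose and 1 fell. Among those that rose were Msx1 by 1.75 and the growth factor gene Fgf8 by 2.12 (adjusted p = 0.00316). Fgf8, which is also among the limb bud genes, was not called in Head Gpr161 KO against Head WT. Its part in the levels of Lhx6 and Lhx8 was not tested. The summed level of the 16 was 366 and 336 CPM in Head Gpr161 KO and 604 to 739 in the other Head libraries. The Gpr161 KO libraries thus lay below the rest as they did for Lhx6 and Lhx8. Fewer cells of a type and less RNA per cell cannot be told apart in libraries from whole tissue.

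Isl1 had the smallest standard errors of the 10 members against WT, and its highest Head levels were in Gpr161 KO. Isl1 (ENSMUSG00000042258), which marks motor neurons, sensory neurons, second heart field and hindlimb mesenchyme, was at 44.5 and 54.8 CPM in Head Gpr161 KO and at 29.3 and 30.7 CPM in Head WT. Head DKO had 31.4 and 33.2 CPM, and Head Fuz KO 27.4 and 30.5. The Gpr161 KO libraries lay above the 6 others, which spanned a narrow range. Isl1 was higher in Gpr161 KO than in Fuz KO by a log2 change of 0.78 (SE 0.20, adjusted p = 0.0389). Against WT the log2 change was 0.73 (SE 0.20, adjusted p = 0.0927) and DKO differed from Gpr161 KO by -0.62 (SE 0.20, adjusted p = 0.106), both short of the threshold. The call against Fuz KO was lost without Head Gpr161 KO 1 (0.92, adjusted p = 0.0777), Head Gpr161 KO 2 (0.61, adjusted p = 0.272) or Head Fuz KO 1 (0.68, adjusted p = 0.199), and with sex as a term (0.56, adjusted p = 0.135). The change against WT was called with sex as a term, at 0.93 (adjusted p = 0.0416), though that term rests on Gpr161 KO 1 against 2.

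In the Tail, Gpr161 KO had 55.6 and 81 CPM of Isl1, WT 38.5 and 52.1, DKO 51.4 and 57.1 and Fuz KO 46.2 and 35.1. Tail Gpr161 KO lay above Tail WT and overlapped Tail DKO. The log2 change against WT was 0.59 there (SE 0.20, adjusted p = 0.42), and the difference of the Gpr161 KO effect between Tail and Head was -0.13 (SE 0.28, adjusted p = 1). Head WT was below Tail WT by a log2 change of -0.59 (SE 0.20, adjusted p = 0.151). None of these Tail values was called.

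Heart genes were higher in the Head group with the most Isl1, although Isl1 itself was not called there against WT. Of 20 cardiomyocyte genes, 15 rose and none fell in Head Gpr161 KO against Head WT, and the smallest adjusted p belonged to Myh6 (log2 change 8.89, adjusted p = 0.00189), Actn2 (5.14, adjusted p = 0.00252) and Ryr2 (3.83, adjusted p = 0.00316), which encode a heart myosin, a sarcomere protein and a calcium channel. Their summed level was 2860 and 613 CPM in Head Gpr161 KO, 13 and 16 in WT, and 12.6 to 46.4 in Fuz KO and DKO. None of the 20 was at 0 in the Gpr161 KO libraries, and 5 and 4 were in WT. Isl1 was lower in Gpr161 KO 1, where the heart genes were higher, than in Gpr161 KO 2. Of 13 second heart field and pharyngeal genes, 3 rose in Head Gpr161 KO against WT and none fell, namely Tbx20 by 3.16 (adjusted p = 0.00944), Mef2c by 1.08 (adjusted p = 0.0439) and Tbx1 by 2.36 (adjusted p = 0.0482). Tbx20 is also in the list of motor neuron genes, of which 2 of 16 rose, the other being Slit2 by 1.61 (adjusted p = 0.00667). No gene of the sensory ganglion or limb bud lists was called higher there. Of 18 sensory ganglion genes, edgeR called 0, with a median of -0.32, 5 at an unadjusted p under 0.05 and 1 with DESeq2. At that unadjusted p, 2747 of all 21284 genes passed with edgeR in this comparison. By the stated division the Head lay above the third branchial arches, and whether it held limb bud tissue was not tested. Of 16 limb bud genes, 4 fell there and none rose, with a median of 0.03. They were Sp8 with -2.85 (adjusted p = 0.000126), Msx1 as above, Gli3 with -0.87 (adjusted p = 0.0104) and, outside the rule for named genes and chosen after its value was seen, Tbx4 with -1.75 (adjusted p = 0.027). The part of heart, pharyngeal, motor neuron and sensory tissue in the level of Isl1 was not tested.

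Isl2 (ENSMUSG00000032318), which encodes the second islet factor of motor neurons, was called changed in no comparison. Head WT had 7.13 and 7.02 CPM, Head DKO 5.14 and 6.22, Head Gpr161 KO 4.36 and 10.3 and Head Fuz KO 4.13 and 8.23. Tail WT had 2.11 and 11.4 CPM, and the mutant Tail libraries ran from 1.5 to 5.61. The Gpr161 KO libraries lay on either side of the Head WT libraries, with a log2 change of 0.05 (SE 0.71, adjusted p = 0.993). A difference in pattern between Isl2 and Isl1 was not tested. Over the 16 libraries Pearson's r between Isl1 and Isl2 was -0.118.

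Lhx3 and Lhx4, paralogs that act with the islet factors in motor neurons and in the pituitary, differed more between the Tail WT libraries than between genotypes. Lhx3 (ENSMUSG00000026934) had 0.383 and 10.1 CPM in Tail WT, against 4.8 and 2.13 in DKO, 2.42 and 1.70 in Gpr161 KO, and 0.928 and 3.38 in Fuz KO. Lhx4 (ENSMUSG00000026468) had 0.622 and 10.8 CPM in Tail WT, against 7.76 and 3.52 in DKO, 2.39 and 2.53 in Gpr161 KO, and 1.96 and 3.70 in Fuz KO. In both genes Tail WT 1 was the lowest of the 8 Tail libraries and Tail WT 2 the highest, so WT enclosed every mutant library. Isl2 shared the high value in Tail WT 2, and its lowest value was in Tail Fuz KO 1.

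The same library stood out for neuronal genes in general. The summed level of 20 pan-neuronal genes was 910 CPM in Tail WT 2 and 298 in Tail WT 1, and it ran from 186 to 429 in the mutant Tail libraries. Tail WT 2 was the highest and none of the 20 genes was at 0 in any Tail library. The 16 motor neuron genes were at 283 CPM summed in Tail WT 2, 131 in Tail WT 1 and 150 to 258 in the mutants. With edgeR, 0 of the 20 pan-neuronal genes were called in any mutant against WT, and DESeq2 likewise called 0. At an unadjusted p under 0.05, edgeR passed 1 in Head Gpr161 KO, 3 in Tail Gpr161 KO, 1 in Tail Fuz KO, 1 in Tail DKO and 0 in Head Fuz KO and Head DKO. Of all 21284 genes, 2747, 1486, 1109, 1530, 1739 and 922 passed, in the same order of comparisons. Without Tail WT 2, the log2 changes of Lhx3 and Lhx4 against WT turned to 2.49 and 2.19 in Tail Fuz KO and to 2.42 and 1.98 in Tail Gpr161 KO, from -1.28, -1.01, -1.34 and -1.21 with it, and none was called. A genotype effect on Lhx3, Lhx4 or Isl2 in the Tail could not be told from the difference between the WT libraries with 2 libraries a group.

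**Figure D3:**
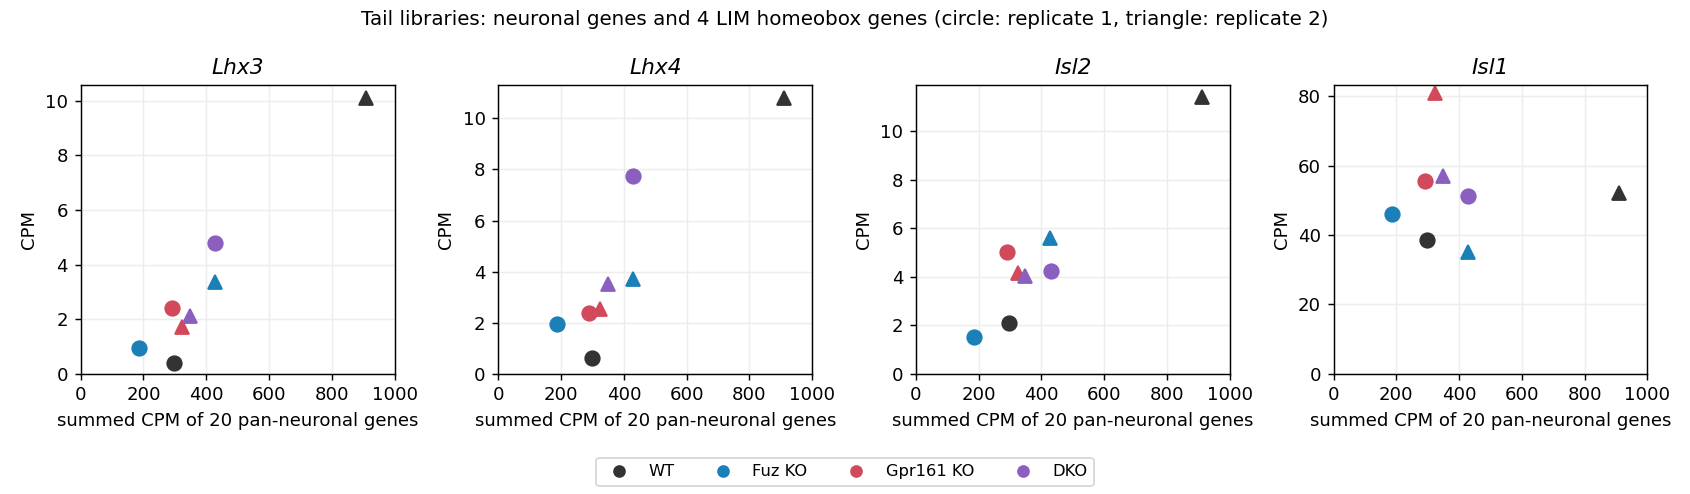
CPM of Lhx3, Lhx4, Isl2 and Isl1 in the 8 Tail libraries on the y axis against the summed CPM of 20 pan-neuronal genes on the x axis, with colours for genotype and circles and triangles for libraries 1 and 2. Tail WT 2 lies at the upper right for Lhx3, Lhx4 and Isl2 at 910 CPM of neuronal genes, while the highest Isl1 value, 81 CPM, belongs to Tail Gpr161 KO 2.

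In the Head, the Gpr161 KO libraries took a different place among the groups for Lhx4 than for Lhx3, though these genes were not tested against each other. Head Gpr161 KO had 10.7 and 14.7 CPM of Lhx4, WT 2.69 and 4.90, DKO 1.88 and 1.51 and Fuz KO 1.19 and 1.55. Lhx3 was read at 2.22 and 2.51 CPM in Head Gpr161 KO, with WT at 1.70 and 3.97, DKO at 0.872 and 1.28 and Fuz KO at 0.649 and 1.02. The Gpr161 KO libraries were above all other Head libraries for Lhx4 and lay between the WT libraries for Lhx3, while Fuz KO and DKO lay below WT for both. Lhx4 had a log2 change of 1.74 in Gpr161 KO against WT (SE 0.88, adjusted p = 0.453), 3.21 against Fuz KO (SE 0.94, adjusted p = 0.0719) and, from Gpr161 KO to DKO, -2.90 (SE 0.93, adjusted p = 0.117). None was called. With the Head fitted without the Tail, the last pair had adjusted p of 0.00432 and 0.00815, and with DESeq2 0.0109 and 0.0291. For Lhx3 the log2 change against WT was -1.75 in Fuz KO, -1.40 in DKO and -0.26 in Gpr161 KO, with SE of 1.03 to 1.09 and no call.

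Lhx2 and Lhx9 are paralogs that share dorsal interneurons and the limb, and Lhx2 is also a selector of the eye field and cortex. Lhx9 (ENSMUSG00000019230) had its lowest levels in Gpr161 KO in both regions. Head Gpr161 KO had 0.788 and 1.07 CPM, against 12.4 and 10.8 in Head WT, 7.16 and 7.27 in DKO and, in Fuz KO, 1.66 and 9.97. Tail Gpr161 KO had 0.308 and 4.44 CPM, against 50.8 and 43.7 in Tail WT, 13.3 and 21.4 in DKO and, in Fuz KO, 7.04 and 48.2. Gpr161 KO lay below every other library of its region, and Fuz KO 1 lay next to it in both. The log2 change against WT was -3.64 in Head Gpr161 KO (SE 1.26, adjusted p = 0.238) and -4.32 in Tail Gpr161 KO (SE 1.25, adjusted p = 0.355), and neither was called. With DESeq2 both were, with -3.67 (adjusted p = 0.031) and -4.31 (adjusted p = 0.0143). The standard errors of Lhx9 were above 1 on the log2 scale in all 6 comparisons with WT.

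Lhx2 (ENSMUSG00000000247) had its highest levels in Head WT and its lowest in Tail Gpr161 KO. Head WT had 81.2 and 68.8 CPM, Head Gpr161 KO 48.1 and 23.3, Head DKO 26.1 and 18.3 and Head Fuz KO 8.57 and 39. Tail WT had 39.7 and 25.3 CPM, Tail DKO 9.24 and 19.4, Tail Gpr161 KO 1.23 and 6.35 and Tail Fuz KO 10.1 and 33.9. Every mutant Head library lay below both WT libraries, and in the Tail the same held for Gpr161 KO and DKO but not for Fuz KO. The log2 change against WT was -1.66 in Head Fuz KO, -1.07 in Head Gpr161 KO and -1.75 in Head DKO, with SE of 0.88 to 0.90 and adjusted p of 0.606, 0.703 and 0.957. In Tail Gpr161 KO it was -3.11 (SE 0.97, adjusted p = 0.42), and with DESeq2 -3.10 (adjusted p = 0.0309). The difference of the Gpr161 KO effect between Tail and Head was -2.03 for Lhx2 (SE 1.27, adjusted p = 1) and -0.68 for Lhx9 (SE 1.65, adjusted p = 1). Per kb of exon, Lhx2 was at 17.1 and Lhx9 at 1.22 CPM in Head WT, and at 7.40 and 4.98 in Tail WT.

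Among gene lists of tissues in which this pair is known to act, eye and forebrain and dorsal interneuron genes were called in Gpr161 KO. No limb bud gene was called in the Tail there, and edgeR called neither member itself. Of 16 limb bud genes, 0 were called with edgeR in Tail Gpr161 KO against WT, with a median log2 change of -0.16. At an unadjusted p under 0.05, 6 of them passed with edgeR, against 1486 of all 21284 genes, and DESeq2 called 3. Of 19 eye and forebrain genes, 4 fell in Head Gpr161 KO against WT and none rose. Among them were Pax6, the eye and cortex selector, with a log2 change of -4.30 (adjusted p = 0.000608), Tbr1, of cortical neurons, with -4.35 (adjusted p = 0.035), and Emx1, of dorsal cortex, with -2.17 (adjusted p = 0.0371), the last outside the rule for named genes and chosen after its value was seen. Of 16 dorsal interneuron genes, 2 fell in Head Gpr161 KO, Atoh1 with a log2 change of -2.83 (adjusted p = 0.0248) and Gsx2 with -4.68 (adjusted p = 0.0288). In Tail Gpr161 KO 3 of them fell, Atoh1 with -10.06 (adjusted p = 0.00325), Olig3 with -2.67 (adjusted p = 0.0129) and Foxd3 with -1.98 (adjusted p = 0.0236). The median of the 16 was -3.24. Of the 16, 7 had no counts in Tail Gpr161 KO 1 and 6 in Tail Gpr161 KO 2, and the fitted size for such genes depends on the prior count. Atoh1 marks the progenitors of the dorsal interneurons in which Lhx2 and Lhx9 are expressed. With sex as a term, 1 of the eye and forebrain genes was called in the Head and, of the dorsal interneuron genes, 0 in the Head and 1 in the Tail. The share of all genes called is not reported here for this fit or the next. Neither set of counts is therefore read as a weaker or stronger result for these lists. Without both Fuz KO 1 and both DKO 1 libraries, the counts were 9, 7 and 7.

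Lhx1 and Lhx5, paralogs of inhibitory interneurons and of the forebrain, showed no called change. Lhx5 (ENSMUSG00000029595) was higher in all 8 Head libraries, at 13.8 to 30.8 CPM, than in all 8 Tail libraries, at 0.207 to 4.35. Head WT had 18.4 and 18.7 CPM of it and Tail WT 1.44 and 4.35, a log2 difference of 2.68 (SE 0.72, adjusted p = 0.0731). With DESeq2 this difference was called (2.7, adjusted p = 0.0152). Tail Gpr161 KO had 0.616 and 0.207 CPM, Tail DKO 1.73 and 1.12 and Tail Fuz KO 0.387 and 2.22. Tail Gpr161 KO lay below Tail WT and DKO but overlapped Fuz KO, with a log2 change against WT of -2.79 (SE 0.82, adjusted p = 0.332). In the Head the change was 0.33 (SE 0.67, adjusted p = 0.898), and the difference between the regions was -3.13 (SE 1.05, adjusted p = 0.585).

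Lhx1 (ENSMUSG00000018698), which also marks the kidney primordium, had overlapping neighbours throughout the order of its 8 group means. It was highest in Head WT, at 7.31 and 9.86 CPM, and lowest in Head Gpr161 KO, at 3.87 and 3.05. Head DKO had 6.03 and 9.21 CPM and Head Fuz KO 1.19 and 9.16, and the Tail libraries ran from 1.76 to 10.6. Head Fuz KO 1 held the lowest value of all 16 libraries and Tail WT 2 the highest. The largest log2 change against WT was -1.31, in Head Gpr161 KO (SE 0.96, adjusted p = 0.655).

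The levels of the 10 genes were ordered over the 8 groups by their means. For Lhx8 the order ran Head DKO, Head Fuz KO, Head WT, Head Gpr161 KO and then the Tail groups, and the gaps without overlap were those on either side of Head Gpr161 KO. For Lhx5 the single gap stood between the Head and the Tail groups. For Lhx2, Head WT at the top and Tail Gpr161 KO at the bottom were apart from their neighbours. For Lhx9, Head WT was apart from Tail DKO above it and from Head DKO below it. For Isl1, Head DKO was apart from Tail Fuz KO above it and from Head WT below it. For Lhx6, Tail Fuz KO was apart from Tail WT above it and from Tail DKO below it, at differences of under 1 CPM. For Lhx3 and Lhx4 the gap lay between Tail Gpr161 KO and Head DKO, and for Isl2 between Head DKO and Tail Gpr161 KO. All other neighbours in these orders overlapped, and Lhx1 had no gap.

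No gene listed as a cofactor or relative of the LIM homeodomain proteins was called changed with edgeR in the fit of all 16 libraries. Of 12 genes for cofactors and relatives, among them the adaptors Ldb1 and Ldb2, the Ssbp proteins that stabilise them, the LIM-only Lmo proteins that compete for them, and the related Lmx1a and Lmx1b, 0 were called in any of the 18 comparisons. At an unadjusted p under 0.05, 3 passed in Head Gpr161 KO and 4 in Tail Gpr161 KO against WT, and 0 to 4 in the other comparisons. Of all 21284 genes, 2747 passed in Head Gpr161 KO and 1486 in Tail Gpr161 KO against WT. Their median log2 change was 0.06 in Head Gpr161 KO against WT. Lmo2 was the closest to the threshold there, with -0.57 (SE 0.22, adjusted p = 0.258). In Tail Gpr161 KO it was Lmx1b, which patterns the dorsal limb, with -1.99 (SE 0.43, adjusted p = 0.116). Lmx1b was at 7.25 and 17.6 CPM in Tail Gpr161 KO and at 58.4 and 40.1 CPM in Tail WT, without overlap. With both Fuz KO 1 and both DKO 1 libraries left out, 3 of the 12 were called in Head Gpr161 KO and 2 in Tail Gpr161 KO, as an alternative added after the data were seen. DESeq2, run on 10 of the comparisons, called 2 in Tail Gpr161 KO against WT, 2 in Head DKO against Gpr161 KO, 1 in Tail Gpr161 KO against Fuz KO, 3 in Head WT against Tail WT and 0 in the other 6. The shares of all genes called in these alternatives are not reported here, so the counts are not read as a result about the list.

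For each member, the genes with the most similar level over the 16 libraries were named by Pearson's r of log2 CPM among 12935 protein-coding genes with a mean of at least 1 CPM. All points share region, genotype and depth, so r is a description. Lhx8 was closest to Abcd2 (r = 0.983), Barx1, a homeobox gene of first arch mesenchyme (0.981), and Pea15a (0.98). Lhx6 was closest to Gpsm2 (0.933), Ldhb (0.911) and Fabp7 (0.902). Lhx3 was closest to Lhx4 (0.829), and both were close to Slc18a3, the vesicular acetylcholine transporter of motor neurons (0.794 for Lhx3 and 0.877 for Lhx4), and to Slc10a4 (0.805 for each). Lhx9 was closest to Lbx1, a homeobox gene of dorsal interneurons and migrating muscle precursors (0.957), Fap (0.909) and Gdf10 (0.895). Lhx2 was closest to Strip2 (0.911), Dock10 (0.905) and Dach1 (0.883), and Lhx5 to B3gat1 (0.975), Cacna2d2 (0.968) and Erbb4 (0.968). Isl1 was closest to Angpt2 (0.909), Elovl1 (0.898) and Ccdc122 (0.897), and Isl2 to the neuronal genes Myt1 (0.882), Elavl4 (0.874) and Nhlh2 (0.858). Lhx1 had no close match, with Prepl at 0.791, Tymp at 0.735 and Ptprg at 0.729.

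**Figure D4:**
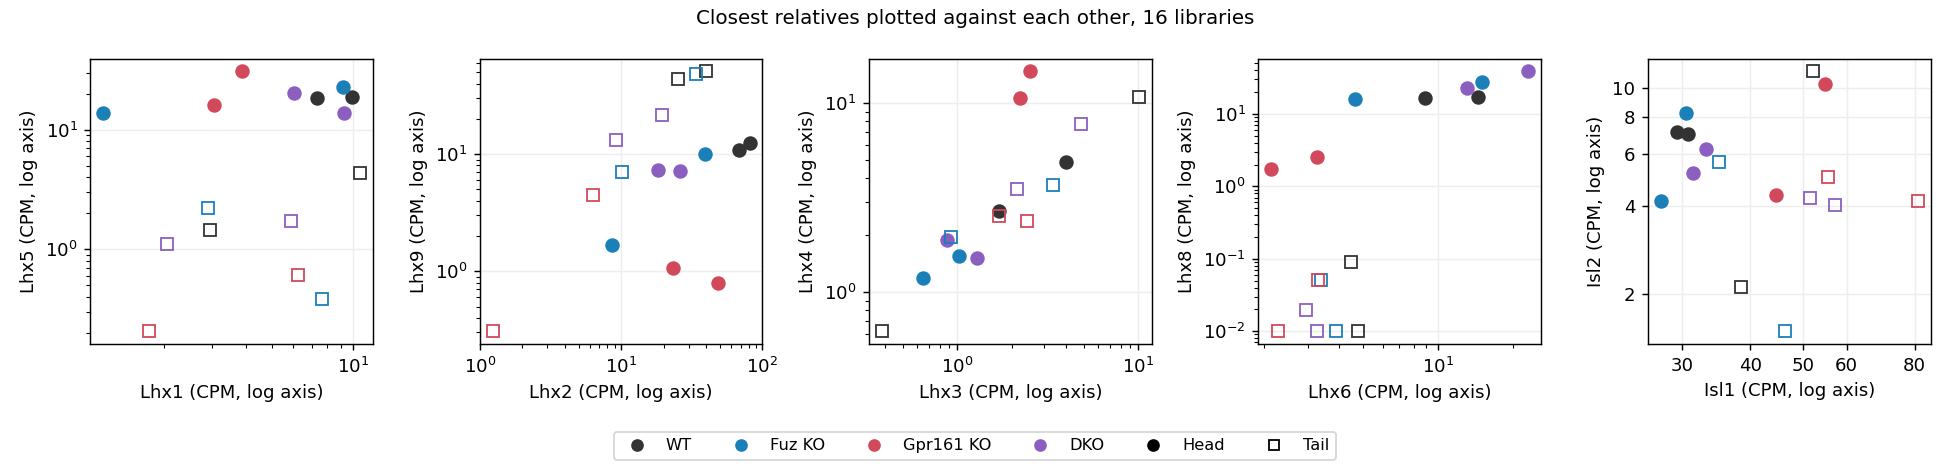
CPM of the closest relatives plotted against each other on log axes over 16 libraries, with colours for genotype, filled circles for the Head, open squares for the Tail and Lhx8 drawn at 0.01 where it had no counts. Lhx3 and Lhx4 (r = 0.829) lie along a line apart from the 2 Head Gpr161 KO libraries, Lhx6 and Lhx8 (r = 0.768) fall together in Head Gpr161 KO, and Lhx2 and Lhx9 (r = 0.507) rise together in the Tail, while the Head Gpr161 KO libraries have less Lhx9 than other Head libraries of like Lhx2 level.

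Among the members themselves the highest r was 0.854, between Lhx5 and Lhx8, both of which were higher in the Head. Of the closest relatives, Lhx3 with Lhx4 had 0.829, Lhx6 with Lhx8 0.768, Lhx2 with Lhx9 0.507, Lhx1 with Lhx5 0.266 and Isl1 with Isl2 -0.118. Reads of an antisense gene cannot be told from those of its partner here because the sources used here do not give the strand setting of the counting. Gm27196, which shares 188 exon bases with Lhx3, was at most at 0.526 CPM, and Gm27199, which shares 69 with Lhx5, at most at 0.809 CPM. Gm27953 shares 104 bases with Lhx6 and had no counts.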

How the data were processed

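Per the labels' protocols, poly-A selected libraries were made from Trizol-extracted RNA treated with DNase. The authors deposited 1 table of whole-number counts for each library, with Ensembl identifiers and no normalization. The submitters' processing notes list STAR 2.7.1a, featureCounts 1.6.0, HTSeq, StringTie 2.0.4, Picard 2.20.4, Trimmomatic and FastQC with the build GRCm39. Which of them counted, and with which strand setting, is not given in the sources used here. Of 54838 identifiers, 54809 matched a name in GENCODE M21, an annotation of GRCm38, which also gave exon lengths, and 29 did not. No genome coordinates were taken from the count files.

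Counts were fitted with edgeR 4.0.16 in R 4.3.3 (TMM, filterByExpr, quasi-likelihood F-test with robust dispersion) with a coefficient for each of the 8 groups, over 16 libraries (8 residual degrees of freedom, common BCV 0.257). P-values were adjusted by Benjamini-Hochberg over 21284 genes, and the same model was tested on simulated data. Totals ran from 39062489 to 53680317, so that 1 read was worth 0.0196 to 0.026 CPM. Log CPM for likeness used a prior count of 2. Similarity named 3 genes for each member, and each gene list named up to 3 members by adjusted p. List levels used a pseudocount of 0.5 CPM. The members and lists were chosen with earlier results of these data known.

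The alternatives tried were DESeq2 1.42.0, RLE scaling, dropping the filter on low counts, a fit of each region by itself, a block for the replicate number, leaving out each library, leaving out both Fuz KO 1 libraries alone or with both DKO 1 libraries, and sex as a term. The last 3 were repeated for the gene lists, together with DESeq2, after the data were seen. A block for Head and Tail libraries of one genotype and number (4 residual degrees of freedom) was added after the data were seen. Raw reads were not analysed here, and some genes counted in the lists are not reported here by name.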

Additional observations from a re-analysis of the deposited data

How the results depend on the processing

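The number of the 10 members called moved with the fit. Without a filter on low counts the fit took 42241 genes and its median prior degrees of freedom turned infinite, from 4.95, and members called rose to 4, 7 and 1 in Head Fuz KO, Gpr161 KO and DKO against WT, to 7 in Head DKO against Gpr161 KO, 6 in Head Gpr161 KO against Fuz KO and 5 in Head non-additivity. In the Tail it gave 1, 3 and 2 against WT, 3 in DKO against Gpr161 KO, 4 in Gpr161 KO against Fuz KO and 4 in non-additivity, with 6 in Head WT against Tail WT and 3 for the Gpr161 KO effect between regions. DESeq2 gave 4 in Head Gpr161 KO against WT, 2 in Head non-additivity, 2 in Tail Gpr161 KO against WT and 3 in Head WT against Tail WT. With each region fitted alone, 1 member was called in Head Gpr161 KO against WT. Sex as a term gave 1 there and 1 in Head Gpr161 KO against Fuz KO. Leaving out both Fuz KO 1 libraries gave 3 members in Head WT against Tail WT, and leaving out both DKO 1 libraries as well gave 2. RLE scaling changed no count of members called by over 1.5 times. The shares of all genes called in these fits are not reported here, so the counts are not read as a result about the members.

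Leaving out each library in turn gave 0 members, as lowest and highest, in Head Gpr161 KO against WT, 0 to 1 in Head DKO against Fuz KO (1 without Head Fuz KO 2), 1 to 2 in Head DKO against Gpr161 KO and in Head Gpr161 KO against Fuz KO, 0 to 2 in Head non-additivity (2 without Head Fuz KO 2), and 1 to 2 in Head WT against Tail WT (2 without Tail WT 2). Without Tail WT 2, log2 changes that were not called changed sign: Lhx3 2.49, Lhx4 2.19 and Isl2 0.76 in Tail Fuz KO against WT, Lhx3 2.42 and Lhx4 1.98 in Tail Gpr161 KO against WT, Lhx3 -1.74 and Lhx4 -0.99 in Tail non-additivity, Lhx4 0.26 for the Gpr161 KO effect between regions, and Lhx4 2.62 in Head WT against Tail WT, now with an adjusted p of 0.0453. Over the libraries left out, these ranged from -2.49 to 2.49, -1.91 to 2.19 and -2.17 to 0.76 in Tail Fuz KO, -2.28 to 2.42 and -2.12 to 1.98 in Tail Gpr161 KO, -1.74 to 3.24 and -0.99 to 3.11 in Tail non-additivity, -3.84 to 0.26 between regions and -1.48 to 2.62 between the WT regions. Sex as a term, estimated only from Gpr161 KO 1 against 2, turned Lhx6 to 0.01 and Lhx9 to 0.63 in Tail DKO against WT. Lhx4 turned to -0.09 in Tail DKO against Fuz KO without both Fuz KO 1 and both DKO 1 libraries, and Lhx5 to 0.09 in Tail Gpr161 KO against Fuz KO without Tail Fuz KO 2 (range -2.65 to 0.09). These are changes larger than their own SE or called after the turn. Of the others, 174 values changed sign without a call, 108 of them with 1 library left out and 15 with sex as a term, which turned Lhx9 from -1.0 to 1.08 in Head Fuz KO, from -0.69 to 1.39 in Head DKO and from -0.77 to 1.31 in Tail Fuz KO against WT. Except for Tail WT 2 and the construction of the fit without a filter, the cause was not tested.

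The labels do not say that a replicate number pairs libraries. The difference between numbers 1 and 2 correlated across genes between groups with r from -0.0787 to 0.437, and genotypes were not taken as paired. Between Head and Tail of one genotype r was 0.437 for Fuz KO, 0.282 for DKO, 0.196 for Gpr161 KO and 0.133 for WT, so a block within genotype was added for the comparisons of regions. It gave 4 members in Head WT against Tail WT and 0 for each effect between regions, with 2007 genes called between the WT regions, 1 for the Fuz KO effect, 217 for the Gpr161 KO effect and 19 for the DKO effect, against 802, 0, 20 and 0 without it. The replicate block gave 1 member in Head non-additivity, Lhx8 at 3.56 (adjusted p = 0.014), and in Head Gpr161 KO against WT it called Isl1 as well at 0.72 (adjusted p = 0.045). Depth limits Lhx8 in the Tail, where 3 counts, the limit that a count of 0 allows, came to 0.0587 to 0.0779 CPM.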
